A study of Mus musculus with 18 samples.

Results

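Cells make protein by loading ribosomes onto messages with initiation factors and moving them along with elongation factors. The transcripts of these factors were followed through 18 single-cell libraries of myeloid cells from yolk sac and brain. Every gene row with a name that starts with Eif or Eef and a digit was taken, which gave 65 of 27297 rows. Of these, 54 were initiation factor rows, 8 were elongation factor rows, and 3 were Argonaute rows listed under their older Eif2c symbols. The Argonaute proteins act in small RNA silencing rather than in initiation, so those 3 rows were kept apart. The labels Eif and Eef say what a gene was named for, and the set also holds kinases and binding proteins that restrain translation.

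All mice were C57BL/6J animals that carried a green fluorescent protein reporter in Cx3cr1, a chemokine receptor gene of macrophages, and none was treated. Yolk sac at embryonic day 12.5 gave 4 libraries and 671 cells, and brain of the same day gave 4 libraries and 718 cells. Brain at embryonic day 18.5 gave 6 libraries and 992 cells, and adult brain, with no age in the labels, gave 4 libraries and 631 cells. The E12.5 cells of both tissues were sorted as CD45+, CD11B+ and reporter-positive, and the E18.5 and adult cells as reporter-positive at intermediate CD45 and CD11B, so the sort gate changed with age. All libraries of an age carried 1 subject number, so p-values measure the spread between libraries, which may be technical.

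Total unique molecular identifier (UMI) counts ran from 74562 to 534219 per library, and the median per cell was 1511 in yolk sac, 1725 in E12.5 brain, 983 in E18.5 brain and 521 in adult brain. The libraries came from 9 plates in 3 sequencing batches, numbered 25, 29 and 31. The E18.5 and adult libraries were all in batch 31, and no batch held E12.5 brain together with either of them. Microglia markers summed to 1373 ± 96.9 CPM (counts scaled to a common library total) in yolk sac, 5978 ± 219 in E12.5 brain, 15075 ± 446 in E18.5 brain and 27821 ± 1211 in adult brain. Mature granulocyte markers were near 0 in every group. Markers of granulocyte precursors were uneven, from 2495 to 9439 CPM in adult brain against at most 162 CPM in E12.5 brain. Globin and other erythroid markers reached 5599 CPM in 1 yolk sac library. The 5 megakaryocyte and platelet markers summed to 3041 ± 266 CPM over the 4 yolk sac libraries. Of these 5 markers 2 had enough counts to be tested, and only Pf4 passed as higher in yolk sac than in E12.5 brain. The sum therefore does not give a share of megakaryocytes. Immediate early genes, which respond to cell isolation among other stimuli, summed to 640.2 ± 53.5, 458 ± 27.6, 4995 ± 467 and 9404 ± 1224 CPM in the same order. The part of these in the results below was not tested, apart from fits without the cells richest in blood lineage transcripts.

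Initiation begins when eIF2 brings the initiator tRNA to the small ribosomal subunit, eIF3 holds that complex together, and the eIF4 factors bind the cap of the message and unwind its leader. Once a start codon is found and the large subunit joins, eEF1A delivers each aminoacyl-tRNA, the eEF1B complex recharges eEF1A with GTP, and eEF2 moves the ribosome on by a codon. Both phases have brakes. The eIF2 kinases phosphorylate eIF2, the eIF4E-binding proteins hold the cap-binding protein, and eEF2 kinase phosphorylates eEF2. Messages for ribosomal proteins and for many elongation factors begin with a C followed by a run of pyrimidines, the 5′ terminal oligopyrimidine or TOP motif, through which mTORC1 controls their translation. A macrophage that divides or grows draws on this machinery heavily.

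Start sites of members with and without such a run are shown because TOP messages are the best-known group of co-regulated translation genes. The windows are RefSeq sequence of build GRCm38.p6, from 30 bases before to 20 bases after the annotated start, read 5′ to 3′ on the strand of the gene, with a run of at least 8 pyrimidines that opens with C in capitals. RefSeq promoters matched 50 of the 65 rows, 43 for initiation, 6 for elongation and 1 for an Argonaute.
Eef1a1 (chr9:78481705-78481754, minus strand): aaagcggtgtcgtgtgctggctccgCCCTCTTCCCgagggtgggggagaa
Eif3f (chr7:108934385-108934434, plus strand): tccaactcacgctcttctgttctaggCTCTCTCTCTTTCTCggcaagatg
Eif3l (chr15:79075193-79075242, plus strand): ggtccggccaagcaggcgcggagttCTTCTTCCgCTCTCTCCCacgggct
Eef1b2 (chr1:63176801-63176850, plus strand): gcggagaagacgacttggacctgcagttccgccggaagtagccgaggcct
A run that began between 30 bases before and 50 bases after the start was present in 12 of the 43 initiation factor genes (27.9%) and in 3 of the 6 elongation factor genes. The same search found one in 25.3% of all 27025 genes with a promoter, in 25.6% of the tested genes that had one, and in 77.3% of 66 ribosomal protein genes. The 3 elongation factor genes with a run were Eef1a1, Eef1a2 and Eef2k, the last searched at 3 annotated starts. Eef1b2, Eef1e1 and Eef2 had no run in this window of the annotated start. A match describes letters only and marks no start site in use. The run need not begin at the first base of the message, as the TOP motif does. A match or its absence therefore does not sort TOP messages from others.

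The E-box CACGTG, the letters bound by Myc, Usf and Tfe factors, reads the same on both strands. It was present within 250 bases before to 50 bases after the start of 10 of 43 initiation factor genes (23.3%) and 2 of 6 elongation factor genes, against 8.09% of all genes and 13.5% of tested genes. Of the 13 matched members that were lower in adult than in E12.5 brain, 6 held it, and these are shown in windows of 30 bases with the E-box in capitals.
Eef2 (chr10:81176576-81176605, plus strand): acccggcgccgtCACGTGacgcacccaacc
Eif3f (chr7:108934335-108934364, plus strand): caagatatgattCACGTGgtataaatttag
Eif3k (chr7:28981915-28981944, minus strand): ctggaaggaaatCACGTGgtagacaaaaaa
Eif4a1 (chr11:69672595-69672624, minus strand): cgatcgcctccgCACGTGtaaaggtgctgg
Eif4h (chr5:134639488-134639517, minus strand): cggccgccgcacCACGTGggccgcagagcg
Eif5a (chr11:69921443-69921472, minus strand): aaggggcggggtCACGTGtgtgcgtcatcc
Among the 26 matched members that were tested and not called lower, 4 held the E-box. Of the genes shown, Eif5a was searched at 6 annotated starts and the others at 1 each. The share among all genes called lower was not counted, and a link of the E-box to the fall was not tested. No binding of a factor was measured here.

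Transcripts of both kinds of factor were least abundant in the adult brain. Initiation factor rows together held 9419.6 ± 166 CPM in yolk sac, 10252 ± 297 in E12.5 brain, 7807 ± 289 in E18.5 brain and 5991 ± 316 in adult brain (mean ± SD over libraries). Elongation factor rows held 5249 ± 371, 6144 ± 554, 5123 ± 1142 and 1699 ± 196 CPM in the same order. The adult sum was thus 58.4% of the E12.5 brain sum for initiation and 27.7% for elongation, and the 80 ribosomal protein rows stood at 23.9%. Libraries of a group were close for initiation, where the highest was at most 1.14 times the lowest in any group, and the 4 groups did not overlap. For elongation the highest E18.5 library was 1.76 times the lowest. The ribosomal protein sum of E12.5 brain split by plate and sequencing batch. In cells with no cell-cycle UMI it was 67156 and 60156 CPM in replicates 1 and 2 (batch 25). In replicates 3 and 4 (batch 29) it was 84348 and 82739 CPM. These sums are shares of all counted molecules and carry no test, and in them fewer cells of a type and less RNA per cell cannot be told apart.

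**Figure D1:**
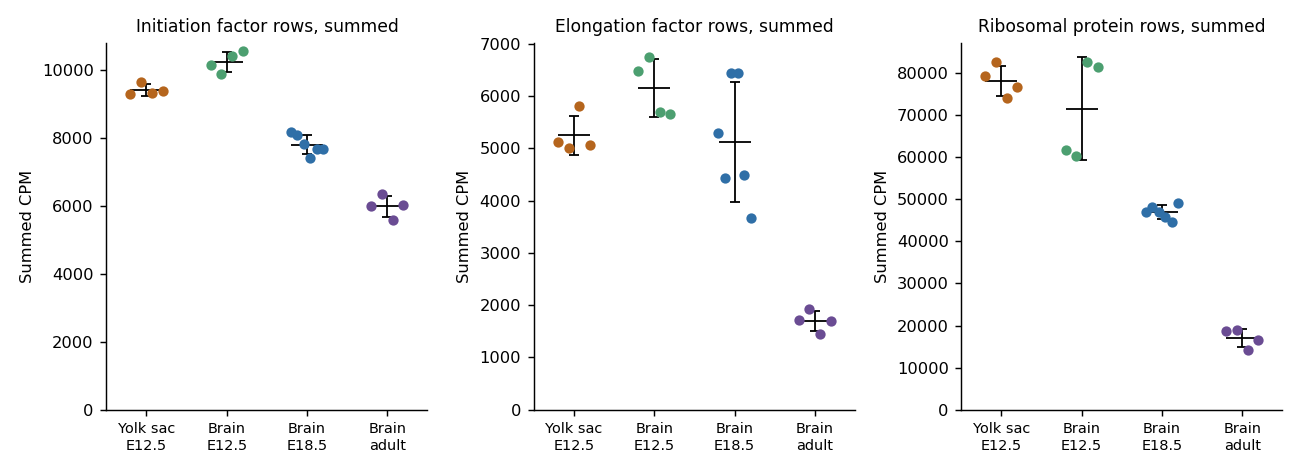
Summed CPM per library (y axis, linear from 0) of initiation factor rows, elongation factor rows and ribosomal protein rows in the 4 groups (x axis), with points for libraries and a bar with whiskers for mean ± SD. Adult libraries lie between 5579.6 and 6351 CPM for initiation and between 1455 and 1934 CPM for elongation, below every embryonic library in all 3 panels.

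The test across genes covered 4883 rows, among them 39 initiation factor rows, 7 elongation factor rows and 2 Argonaute rows. It was edgeR's quasi-likelihood test on counts summed per library, with Benjamini-Hochberg adjustment over all 4883 rows, and a row is said to have risen or fallen when its adjusted p was under 0.05. A row needs counts in enough libraries to be tested, so the 17 rows left out are weakly counted ones and are described by their counts at the end. A UMI stands for 1 captured 3′ end whatever the length of the message, so CPM can be compared between genes apart from differences in capture.

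Most tested elongation factors were lower in adult than in E18.5 brain, and both groups came from sequencing batch 31. Of the 7 tested elongation rows, 5 fell and 1 rose, where 21.5% of all tested genes passed in either direction, 11.2% lower and 10.3% higher. Of the 39 initiation rows, 8 fell and none rose. The median log2 fold change was -0.86 for elongation and -0.37 for initiation, against -0.03 over all tested genes. Libraries did not overlap for 4 of the elongation rows and 5 of the initiation rows that were lower, against 9.13% of all tested genes, and for none that were higher, against 7.7%.

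Eef2, the translocase, was the most abundant member. Its level was 2349.7, 2605, 1902 and 1936 CPM in the yolk sac libraries and 2361, 2289, 3261 and 3134 CPM in E12.5 brain. It was 1445 to 1746 (median 1623) in E18.5 brain and 854, 945, 779 and 899 in adult brain. Levels stepped down from E12.5 to E18.5 to adult brain with no overlap between libraries at either step. In both E12.5 tissues the Eef2 libraries split by plate and sequencing batch, and batch 29 held the higher libraries of each. With the sequencing batch as a covariate the E18.5 difference to E12.5 brain was -0.67 (adjusted p = 0.0118). Eef2 fell from E12.5 to E18.5 (log2 fold change -0.79, SE 0.13, adjusted p = 1.76e-05) and again to the adult (log2 fold change -0.86, SE 0.15, adjusted p = 2.82e-05). The whole difference between adult and E12.5 brain was log2 -1.65, adjusted p = 2.91e-11. In cells thinned to 300 UMIs each, 56.1% ± 10.2 of E12.5 brain cells, 38.8% ± 3.02 of E18.5 cells and 22.9% ± 2.20 of adult cells held an Eef2 UMI, and unthinned the shares were 96.2% ± 2.19, 73.8% ± 6.48 and 36.0% ± 5.75. The 36 empty wells held 11 member UMIs in all, 1 of them Eef2.

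The 3 subunits of eEF1B, the exchange factor, all fell in the adult. Eef1b2, the catalytic beta subunit, was at 859.8, 879.8, 977 and 967 CPM in E12.5 brain, 723 to 877 (median 769) in E18.5 brain and 171, 231, 145 and 241 in adult brain. The embryonic brain groups overlapped and the adult libraries were all far lower (log2 fold change -1.98, SE 0.19, adjusted p = 8.06e-11 against E18.5). Eef1g, the structural gamma subunit, was at 791, 957, 801 and 775 CPM in E12.5 brain, 515 to 770.3 (median 581) in E18.5 brain and 151, 44.0, 156 and 93.9 in adult brain. Its fall from E18.5 to adult (log2 fold change -2.43, SE 0.23, adjusted p = 5.22e-11) was the steepest of the eEF1B subunits, and its adult libraries ranged widely on 41 UMIs in all. Eef1d, the delta subunit, was at 342, 395, 398 and 464, 177 to 349.7 (median 287) and 201, 165, 104 and 201 CPM in the same groups. Adult libraries of Eef1d overlapped the lowest E18.5 library, and the difference was smaller (log2 fold change -0.72, SE 0.23, adjusted p = 0.0231); leaving out 1 library ended this call in 2 of 10 cases (adjusted p up to 0.124), as did several other settings (up to 0.289).

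From E12.5 to E18.5 brain the drop in Eef1d (log2 fold change -0.51, SE 0.19, adjusted p = 0.0394) and Eef1g (log2 fold change -0.42, SE 0.16, adjusted p = 0.0498) passed the threshold narrowly. Leaving out 1 library ended the call in 7 of 10 cases for Eef1d and in 9 of 10 for Eef1g, and with the sequencing batch as a covariate the adjusted p was 0.574 and 0.548. Without cells that held a cell-cycle UMI, the Eef1g difference turned to 0.039 (log2, adjusted p = 0.92). Eef1b2 gave log2 fold change -0.23, SE 0.15, adjusted p = 0.256 in that comparison.

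Eef1a1, which carries aminoacyl-tRNA to the ribosome, did not follow the other elongation factors. Its level differed up to 11.5-fold between libraries of 1 group. In yolk sac it was 285 and 178 CPM in the libraries of 1 plate (batch 29) and 2051 and 1157 CPM in the other (batch 31). In E12.5 brain it was 2031 and 2143 CPM on 1 plate (batch 25) and 189 and 219 CPM on the other (batch 29). The split ran along plates and sequencing batches in both tissues, and batch 29 held the low libraries of each.
In E18.5 brain, all in batch 31, the libraries were 1859, 1126, 3079, 2987, 1020.0 and 309.8 CPM, and in adult brain, also in batch 31, 231, 308, 93.5 and 107 CPM. The highest E18.5 library was 9.94 times the lowest, and the highest adult library lay just under the lowest E18.5 one. The pooled within-group SD of Eef1a1 was 1.45 on the log2(CPM + 1) scale, against a median of 0.38 over 2064 tested rows with a mean of at least 100 CPM, among which it ranked 26. For Eef2 the SD was 0.18, although its E12.5 libraries also split by plate in both tissues. Whether the plate, the sequencing batch or the animals set the split of Eef1a1 in the E12.5 tissues cannot be told apart. The E18.5 libraries differed within batch 31 as well, and also within a plate, with 1020.0 and 309.8 CPM for replicates 5 and 6. What set that spread was not tested.

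**Figure D2:**
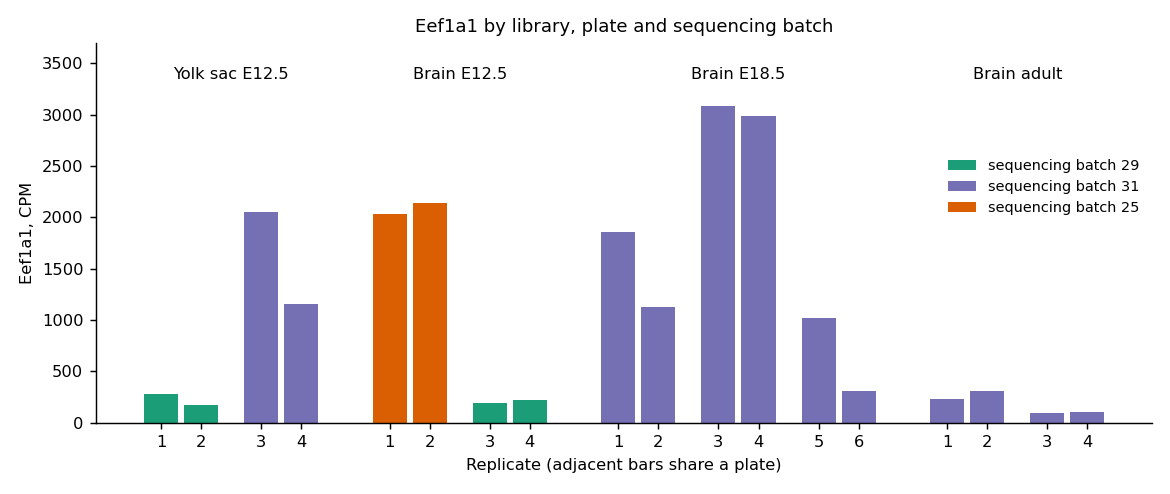
Eef1a1 in CPM (y axis, linear from 0) for each of the 18 libraries (bars), grouped by tissue and stage, with adjacent bars from the same plate and colour giving the sequencing batch. The 4 libraries of batch 29 lie between 178 and 285 CPM, while those of batch 25 are at 2031 and 2143 CPM.

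The fitted difference of Eef1a1 between adult and E18.5 brain was large and uncertain (log2 fold change -3.17, SE 1.06, adjusted p = 0.0448). Leaving out 1 library ended that call in 7 of 10 cases (adjusted p up to 0.113), and so did a minimum of 500 UMIs per cell (0.0692), sums per plate (0.292), limma-voom (0.121) and no filter on low counts (0.0758). With the sequencing batch as a covariate in the edgeR fit the difference was -3.17 (SE 0.70, adjusted p = 0.00449). Against E12.5 brain it did not pass (log2 fold change -2.57, SE 1.09, adjusted p = 0.077), although DESeq2 gave an adjusted p of 0.0171. Eef1a1 also has many near-identical processed copies in the mouse genome, and how reads on them were counted is not given in the sources used here. Without Eef1a1 the elongation sum was 4331 ± 583, 4998 ± 551, 3393 ± 65.8 and 1514 ± 117 CPM, and the adult sum was 30.3% of the E12.5 brain sum. Its paralogue Eef1a2, the form of neurons and muscle, had 4 UMIs in all libraries together.

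Eef2k, the kinase that inactivates eEF2, was the 1 elongation row that rose in the adult. It was at 33.3, 43.5, 38.8 and 44.5 CPM in yolk sac, 12.1, 28.1, 12.9 and 21.9 in E12.5 brain, 21.2 to 59.7 (median 28.2) in E18.5 brain and 50.3, 187, 145 and 121 in adult brain. Adult libraries were above all E12.5 brain libraries and overlapped 1 E18.5 library. The rise was log2 1.92, adjusted p = 0.000544 against E18.5 and log2 2.71, adjusted p = 4.84e-06 against E12.5 brain. It rests on 45 UMIs in adult brain, and it passed the threshold in each alternative that tested it. Eef2k had enough counts to be tested only through its adult libraries and 1 E18.5 library. A fall of this row in the adult could therefore hardly have been called. Eef1e1, an auxiliary protein of the tRNA synthetase complex rather than of elongation proper, had means from 43.3 to 65.1 CPM and passed in no comparison.

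**Figure D3:**
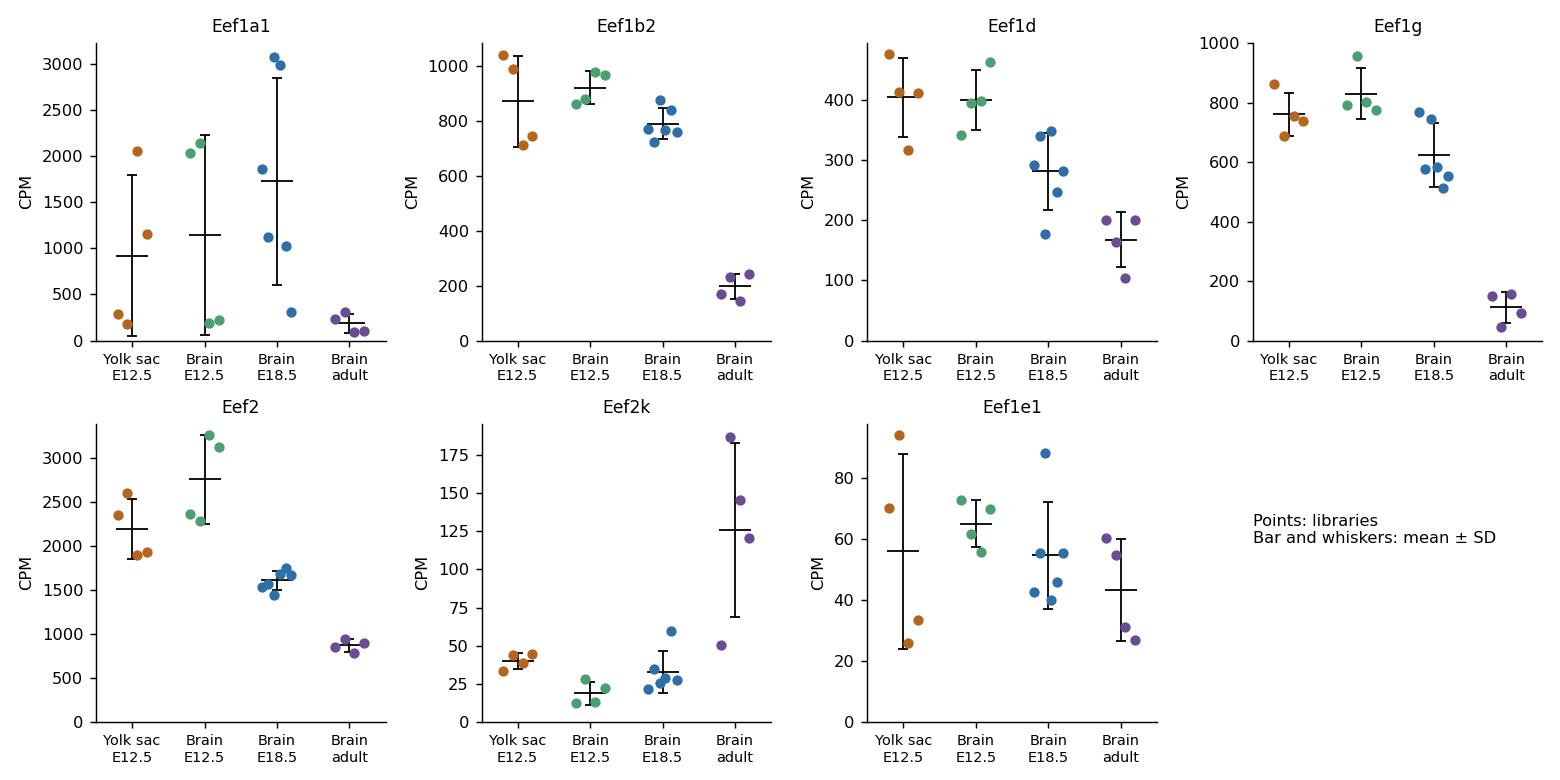
CPM (y axes, linear from 0, each with its own scale) of the 7 tested elongation factor rows in each library (points), with mean ± SD. Eef1b2, Eef1g and Eef2 are lower in all 4 adult libraries than in any embryonic library, Eef2k is higher in 3 of the 4 than in any embryonic library, and Eef1a1 is spread over a wide range in each embryonic group.

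The summed initiation factors were lower at each later stage of the brain. From E12.5 to E18.5 brain 13 of 39 initiation rows fell and none rose, and 3 of 7 elongation rows fell, where 24.5% of all tested genes passed, 13.4% lower and 11.1% higher. The median log2 fold change was -0.33 for initiation and -0.27 for elongation, against -0.03 over all tested genes. Libraries did not overlap for 10 initiation rows and 2 elongation rows that were lower, against 10.6% of all tested genes, and for none that were higher, against 8.11%. Adult against E12.5 brain gave 14 initiation rows lower and 1 higher, and 4 elongation rows lower and 1 higher, where 38.6% of all genes passed, 20.7% lower and 17.8% higher. Here the medians were -0.73 and -1.65 against -0.07, and 11 initiation and 4 elongation rows were lower without overlap, against 19% of all tested genes. Eif2ak3 and Eef2k were higher without overlap, against 15.3%. Both had enough counts to be tested only through libraries of the later stages. The adult libraries enter both adult comparisons, and the E12.5 brain libraries enter 3 comparisons, so the counts are not independent. The sort gate and the sequencing batch changed between E12.5 and the later stages and cannot be told apart from age. With the batch as a covariate, estimated through the yolk sac libraries, 3 initiation rows and 1 elongation row fell at E18.5. In that fit 332 of the 4883 tested genes passed at E18.5, 184 of them lower. In adult against E12.5 brain 7 initiation rows fell with this covariate, where 910 of the 4883 genes passed, 554 of them lower. Eef1b2, Eef1d, Eef1g and Eef2 also passed lower there, and Eef2k higher.

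Of the 13 initiation rows that fell at E18.5, 6 were subunits of eIF3, the largest initiation complex. Its 13 rows summed to 3976 ± 262 CPM in yolk sac, 4367 ± 154 in E12.5 brain, 3032 ± 299 in E18.5 brain and 2126 ± 223 in adult brain. All 11 tested subunits had a negative log2 fold change from E12.5 to E18.5, and 6 of them fell: Eif3d, Eif3g, Eif3h, Eif3i, Eif3k and Eif3l (13.4% of all tested genes fell). Adult against E18.5 brain gave 5 falls, in Eif3b, Eif3f, Eif3h, Eif3k and Eif3l, where 11.2% of all tested genes fell. Against E12.5 brain there were 6, with Eif3i added to these, where 20.7% of all tested genes fell.

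Eif3k and Eif3l, peripheral subunits that bind each other, and Eif3h passed at both steps, but with the sequencing batch as a covariate none of the 3 passed at the E12.5 to E18.5 step. The values there were -0.61 for Eif3k (adjusted p = 0.21), -0.30 for Eif3l (0.722) and -0.14 for Eif3h (0.844). Eif3k was at 617, 571, 878 and 748 CPM in E12.5 brain, 278 to 510.0 (median 378) in E18.5 brain and 271, 219.8, 145 and 93.9 in adult brain. Its libraries did not overlap at either step (log2 fold change -0.90, SE 0.19, adjusted p = 0.000664 at E18.5, and log2 fold change -0.99, SE 0.25, adjusted p = 0.00331 from there to the adult). Eif3h was at 611, 663, 596 and 617 CPM in E12.5 brain, 389 to 595 (median 463) in E18.5 brain and 191, 165, 239 and 228 in adult brain. The later step was the larger one for Eif3h (log2 fold change -1.18, SE 0.19, adjusted p = 6.07e-06), and the earlier one (log2 fold change -0.39, SE 0.15, adjusted p = 0.0478) was lost without 1 library in 9 of 10 cases. Eif3l was at 362, 266, 326 and 311 CPM, 126 to 278 (median 224) CPM and 111, 143, 72.7 and 67.1 CPM in these groups, with 1 E18.5 library inside the adult range. Its difference between adult and E18.5 brain was log2 fold change -1.08, SE 0.27, adjusted p = 0.00323, and it did not pass with cells thinned to 300 UMIs (adjusted p = 0.137) or without cells holding a cycle UMI (0.157). Its earlier difference of log2 -0.56, adjusted p = 0.0363 was lost in 8 of 10 cases.

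Other subunits passed at 1 step and not at the other, and whether the steps differ was not tested. Eif3i, a core scaffold subunit, was at 263, 277, 403 and 363 CPM in E12.5 brain, 138 to 202 (median 145) in E18.5 brain and 121, 121, 135 and 148 in adult brain. It fell at E18.5 (log2 fold change -1.02, SE 0.19, adjusted p = 9.24e-05), although not with cells thinned to 300 UMIs (adjusted p = 0.0939) or without cells holding a cycle UMI (0.0563), and its adult libraries overlapped the lower E18.5 ones. Eif3d, which can bind the cap itself, fell at E18.5 (log2 -0.77, adjusted p = 0.00469) and stood at 224 ± 104 CPM in the adult, against 199 ± 39.7 at E18.5. The E18.5 call on Eif3d ended with the batch as a covariate (adjusted p = 0.0892), with thinned cells (0.186), with thinned libraries (0.0714) and without cells holding a cycle UMI (0.0758). Eif3b, a core subunit, was at 370.2, 339, 317 and 363 CPM in E12.5 brain and 171, 132, 125 and 188 CPM in the adult (log2 -1.16, adjusted p = 9.38e-05), with -0.65 (adjusted p = 0.174) without cells holding a cycle UMI. Eif3f was at 706, 700.1, 629.9 and 669.7 CPM and 422, 319, 332 and 429 CPM (log2 -0.83, adjusted p = 0.000543). With the batch as a covariate that value was -0.38 (adjusted p = 0.399), and its step from E18.5 to adult (log2 -0.50, adjusted p = 0.0437) was lost without 1 library in 6 of 10 cases. Eif3c, another core subunit and abundant, had means of 422 ± 80.3, 476 ± 45.0, 383 ± 52.4 and 348 ± 118 CPM and passed in no comparison.

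**Figure D4:**
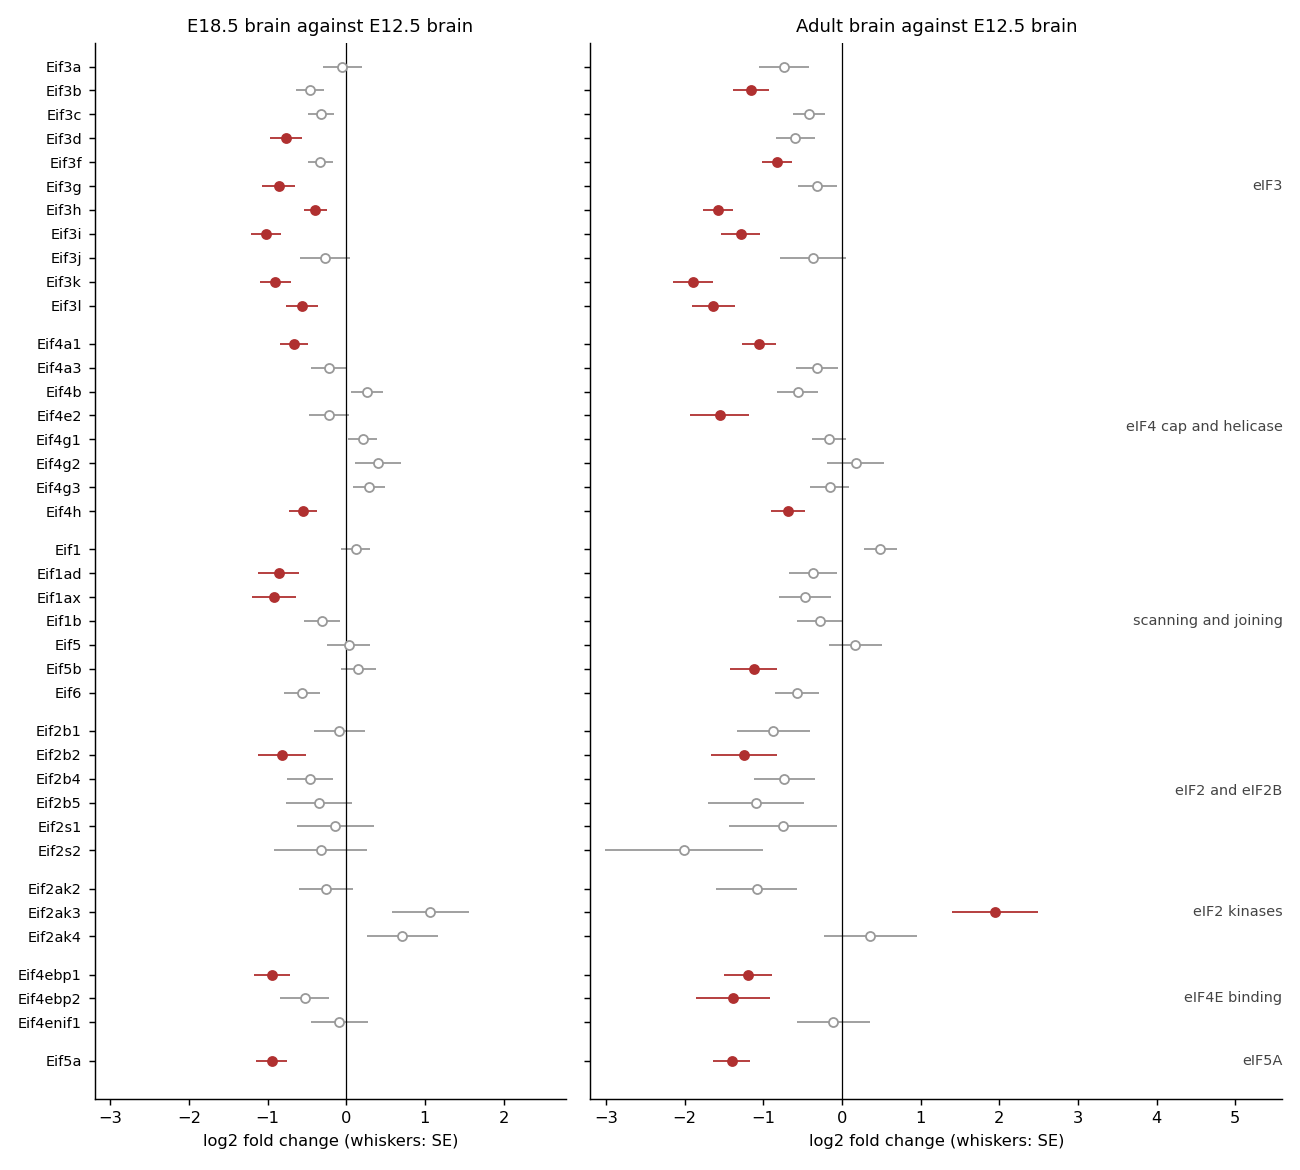
Log2 fold change (x axes, the same scale per unit) with its standard error (whiskers) of the 39 tested initiation factor rows (y axis, grouped by role) for E18.5 against E12.5 brain and for adult against E12.5 brain. Filled red points passed an adjusted p under 0.05 (13 and 15 rows) and open grey points did not; Eif2ak3 is the 1 filled point to the right of 0.

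The eIF4 factors bind the cap and open the leader. Their 12 rows summed to 2115 ± 285, 2415 ± 222, 2204 ± 173 and 1664 ± 141 CPM. Of 8 tested rows, 2 fell from E12.5 to E18.5 brain, 2 from E18.5 to adult and 3 from E12.5 to adult, where 13.4%, 11.2% and 20.7% of all tested genes fell, so that the counts were not far from the background. Eif4a1, the RNA helicase of dividing cells, was at 609, 558, 643 and 626 CPM in E12.5 brain, 312 to 425 (median 397) in E18.5 brain and 332, 297, 208 and 322 in adult brain. It fell at E18.5 (log2 fold change -0.66, SE 0.18, adjusted p = 0.00439) and was lower in the adult than in E12.5 brain (log2 -1.05, adjusted p = 0.000144). Without cells holding a cell-cycle UMI the E18.5 difference was -0.18 (adjusted p = 0.607), and with the batch as a covariate it was -1.68 (7.1e-06). Without such cells the adult difference to E12.5 brain was -0.64 (adjusted p = 0.0565).
Eif4a2, the close paralogue with the same helicase activity, was at 2.02, 1.87, 0 and 0 CPM in E12.5 brain and 10.1, 22, 20.8 and 26.8 CPM in adult brain. That is the opposite order to Eif4a1, on 22 UMIs in all libraries, too few to be tested. Eif4a3, the helicase of the exon junction complex, had means from 175 to 218 CPM and passed nowhere. Eif4h, which stimulates the helicase, fell at E18.5 (log2 -0.55, adjusted p = 0.0225); 7 of 10 leave-one-out fits ended this call, and with the batch as a covariate the value was -0.06. In adult against E12.5 brain it was log2 -0.68, adjusted p = 0.0112, and -0.20 with that covariate (adjusted p = 0.738). Eif4b, with a like role, fell from E18.5 to adult (log2 -0.83, adjusted p = 0.0144), a call lost in 5 of 26 alternatives (adjusted p up to 0.12).

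The canonical cap-binding protein row, Eif4e, held only 11 UMIs in all 3012 cells. Capture differs between genes, so this count does not give the true level of Eif4e. Its paralogue Eif4e2, a cap-binding protein that can repress translation, was at 152, 207, 265 and 178 CPM in yolk sac, 255, 219, 90.0 and 123 in E12.5 brain, 71.9 to 227 (median 146) in E18.5 brain and 50.3, 44.0, 52.0 and 93.9 in adult brain. The adult libraries were below all others apart from replicate 4, which overlapped both embryonic brain groups. Eif4e2 fell from E18.5 to adult (log2 fold change -1.33, SE 0.38, adjusted p = 0.00832), but did not pass with limma-voom (adjusted p = 0.137) or with cells thinned to 300 UMIs (0.124). Eif4e3 held 87 UMIs and was not tested. The scaffolds Eif4g1, Eif4g2 and Eif4g3 passed in no comparison, with means of 349.8, 155 and 199 CPM in E12.5 brain and 308, 177 and 175 CPM in adult brain. The adult against E12.5 values were log2 -0.17 with SE 0.22, log2 0.17 with SE 0.36 and log2 -0.16 with SE 0.25, and the sign of each changed in some alternatives.

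Eif5a, a factor that frees stalled ribosomes and carries the modified residue hypusine, was the most abundant row counted with initiation. It was at 918, 1031, 599 and 871 CPM in yolk sac, 825, 775, 1311 and 1637 in E12.5 brain, 430.3 to 802 (median 581) in E18.5 brain and 392, 385, 478 and 443 in adult brain. The E12.5 brain libraries split by plate, with replicates 3 and 4 higher, and the highest E18.5 library lay inside their range. Eif5a fell at E18.5 (log2 fold change -0.95, SE 0.20, adjusted p = 0.000641) and was lower in adult than in E12.5 brain (log2 -1.40, adjusted p = 2.29e-05); these values were -0.95 and -1.40 with the batch as a covariate. Eif5a2 had 4 UMIs. Dohh, the 1 tested hypusine enzyme, passed at E18.5 (log2 -1.02, adjusted p = 0.027), but gave -0.24 with the batch as a covariate (adjusted p = 0.876).

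Factors of scanning and subunit joining were close to level as a sum, at 1306 ± 52.1, 1332 ± 45.9, 1165 ± 155 and 1164 ± 125 CPM. Eif1, which guards start codon choice, was at 281, 296, 359.9 and 385 CPM in E12.5 brain, 260.0 to 473 (median 369.9) in E18.5 brain and 362, 538, 395 and 523 in adult brain. Adult against E12.5 it gave log2 fold change 0.48, SE 0.21, adjusted p = 0.0649, above 0 but past no threshold. Its paralogue Eif1b gave log2 -0.28 with SE 0.29. Eif1ax, the scanning factor eIF1A, was at 138, 142, 201 and 175 CPM in E12.5 brain and 57.3 to 133 (median 81.8) in E18.5 brain, without overlap (log2 fold change -0.92, SE 0.28, adjusted p = 0.0116); 2 of 10 leave-one-out fits ended this call, as did the batch as a covariate (adjusted p = 0.329), sums per plate (0.109) and thinned libraries (0.174). The related Eif1a row held 138 UMIs and was not tested.
Eif5b, the GTPase that joins the subunits, passed no threshold between E12.5 and E18.5 brain (log2 0.15 with SE 0.22) and fell from there to the adult. Its levels were 301, 277, 154 and 136 CPM in E12.5 brain, 198 to 292 (median 254) in E18.5 brain and 121, 165, 52.0 and 53.6 in adult brain. The E12.5 and the adult libraries each split by plate, with replicates 1 and 2 higher in both groups. The drop from E18.5 to adult was without overlap (log2 fold change -1.28, SE 0.29, adjusted p = 0.00106).

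eIF2 and its exchange factor eIF2B were weakly counted, and 6 of 11 rows were tested. The rows summed to 439 ± 90.0, 503 ± 55.6, 395 ± 65.8 and 266 ± 66.5 CPM. Eif2b2 passed narrowly at E18.5 (log2 -0.82, adjusted p = 0.0446), and 18 of 24 alternatives ended that call (adjusted p up to 0.282). In adult against E12.5 brain it fell (log2 -1.25, adjusted p = 0.0173), a call lost in 3 of 21 alternatives, among them the batch as a covariate (0.0636). The gamma subunit of eIF2 is encoded on both sex chromosomes, and the rows Eif2s3x and Eif2s3y held 46 and 4 UMIs, too few to test.

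The brakes on initiation did not move as one. Eif4ebp1, which sequesters eIF4E unless mTORC1 phosphorylates it, was at 455, 494, 343 and 263 CPM in yolk sac, 200.3, 170.3, 304 and 210.1 in E12.5 brain, 82.7 to 159.9 (median 115) in E18.5 brain and 90.5, 109.9, 104 and 67.1 in adult brain. The order ran from yolk sac down to adult brain, and neighbouring E18.5 and adult levels overlapped (log2 -0.26 with SE 0.31). Eif4ebp1 fell from E12.5 to E18.5 brain without overlap (log2 fold change -0.94, SE 0.23, adjusted p = 0.0022), and with the batch as a covariate this was -0.58 (adjusted p = 0.402). Eif4ebp2 was lower in adult than in E12.5 brain (log2 -1.38, adjusted p = 0.0175), from 73.6 ± 22.9 to 28.6 ± 13.0 CPM, on 10 adult UMIs. That call ended with the batch as a covariate (adjusted p = 0.198), limma-voom (0.0704), at least 500 UMIs per cell (0.0658) and thinned libraries (-0.75, 0.347). The Eif4ebp3 row, joined with Ankhd1, held 101 UMIs and was not tested.

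Of the 4 eIF2 kinases 3 were tested, and Eif2ak3 (PERK), the sensor of stress in the endoplasmic reticulum, was the 1 that rose. It was at 18.2, 20.6, 12.9 and 17.5 CPM in E12.5 brain, 16.6 to 68.8 (median 39.6) in E18.5 brain and 70.4, 87.9, 83.1 and 26.8 in adult brain. The adult libraries lay above all E12.5 brain libraries and overlapped those of E18.5. The rise against E12.5 was log2 1.95, adjusted p = 0.00452, on 25 adult UMIs. With the batch as a covariate it was 1.61 (adjusted p = 0.362). Eif2ak3 had enough counts to be tested only through adult and E18.5 libraries, so a fall from E12.5 could hardly have been called. Eif2ak2 (PKR), the sensor of double-stranded RNA, was at 92.5, 61.7, 126 and 126 CPM in yolk sac, 82.9, 50.5, 55.7 and 52.5 in E12.5 brain and 0, 33.0, 31.2 and 53.6 in adult brain, with 1 adult library at 0. It passed in no comparison, with log2 0.77 with SE 0.33 for yolk sac against E12.5 brain. Eif2ak4 (GCN2), the sensor of amino acid lack, gave log2 0.36 with SE 0.59 in adult against E12.5 brain. Eif2ak1 held 112 UMIs, as many as Eif2ak3, and was not tested.

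**Figure D5:**
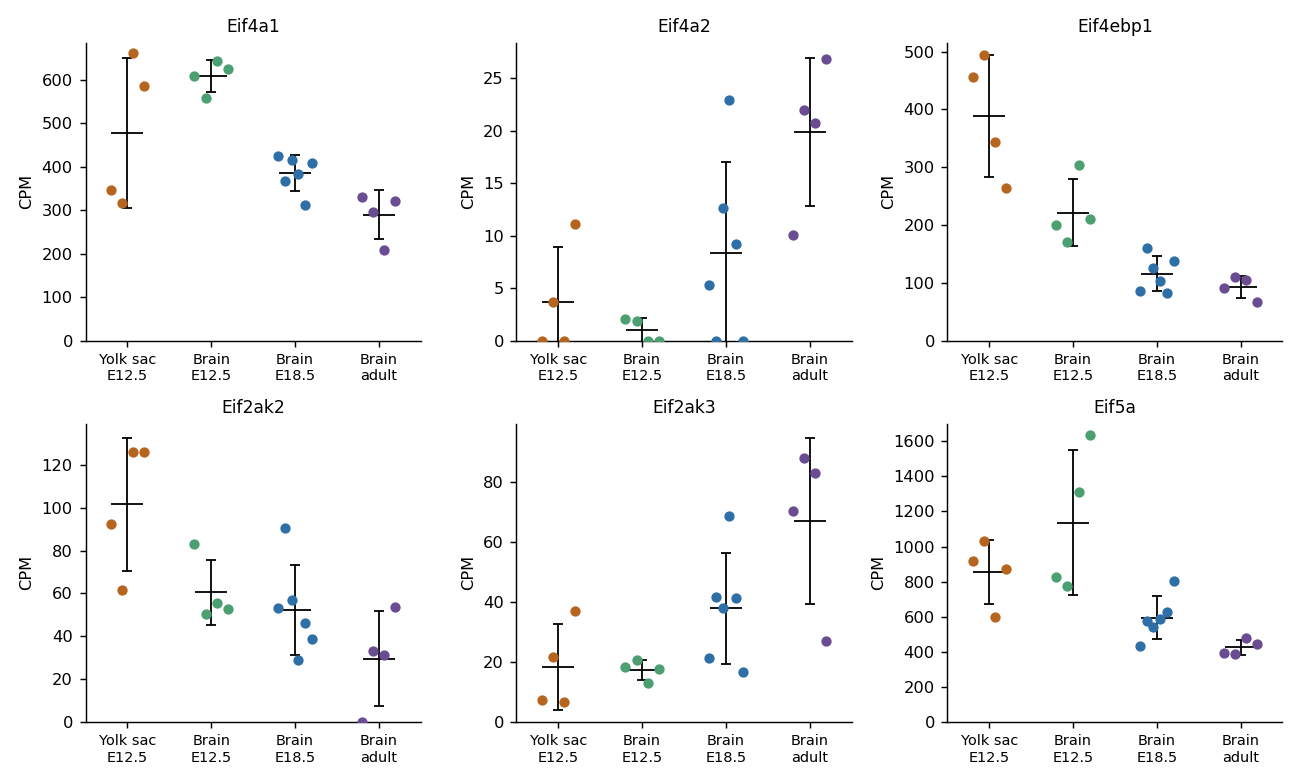
CPM (y axes, linear from 0, each with its own scale) of Eif4a1, Eif4a2, Eif4ebp1, Eif2ak2, Eif2ak3 and Eif5a in each library (points), with mean ± SD. Eif4a1 and Eif4ebp1 are lower in adult than in E12.5 brain in every library, while Eif4a2, on 22 UMIs, is higher.

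Yolk sac and brain cells of the same day differed in few of these rows. Of 39 initiation rows 1 rose and 2 fell in yolk sac against brain, and none of 7 elongation rows passed, where 15.9% of all tested genes passed, 7.04% higher and 8.81% lower. The median log2 fold change was -0.13 for initiation and -0.09 for elongation, against -0.05 over all tested genes. At an unadjusted p under 0.05, 1241 of 4883 genes would pass, and among the elongation rows Eef2k (log2 1.09 with SE 0.44) and Eef2 (log2 -0.30 with SE 0.15) came closest. The sequencing batch that holds both tissues is batch 29, with 2 libraries of each, and each tissue there is 1 plate, so tissue and plate cannot be told apart. Within it 4 of 35 tested initiation rows passed higher and 4 lower, and 1 of 6 elongation rows passed lower, Eef2 (-0.35, adjusted p = 0.00237). Of all 4247 genes tested in that fit 20.5% passed, 11.1% higher and 9.37% lower. On counts summed per plate over all batches no initiation or elongation row passed, while 493 genes did.

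Eif4ebp1 rose in yolk sac (log2 fold change 0.86, SE 0.23, adjusted p = 0.0056), and was 0.90 within batch 29 (adjusted p = 4.5e-05). The lowest yolk sac library lay inside the range of the brain libraries. Eif3b fell in yolk sac, from 370.2, 339, 317 and 363 CPM in brain to 204, 171, 243 and 267 CPM (log2 fold change -0.61, SE 0.19, adjusted p = 0.0233), and was -0.84 within batch 29. Eif2b4, an eIF2B subunit, fell from 99.1, 107, 81.4 and 83.2 CPM to 59.2, 47.2, 29.1 and 51.9 CPM (log2 fold change -0.96, SE 0.32, adjusted p = 0.0327), and was -0.61 within batch 29 (adjusted p = 0.341). Leaving out 1 library ended the Eif3b call in 4 of 8 cases and the Eif2b4 call in 5 of 8. Yolk sac libraries were below all brain libraries in 6 of the 39 initiation rows and above in 1, against 11.6% and 8.36% of all tested genes.

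Cycling transcripts were also lowest in the adult, and the 14 S phase and mitosis markers summed to 1438 ± 78.3, 1857 ± 111, 1323 ± 308 and 477 ± 247 CPM. Cells were therefore split, within each library, into those with none of these UMIs and those with 2 or more. The initiation sum was higher in the cells with 2 or more in each of the 18 libraries, but the 4 adult libraries held 9, 6, 11 and 1 such cells, so that their values rest on few cells. In E12.5 brain it was 10756 ± 428 CPM in such cells against 9198 ± 319 in cells with none, and in E18.5 brain 8591 ± 554 against 7289 ± 580. The elongation sum was higher in 4 of 4 yolk sac, 4 of 4 E12.5 brain, 2 of 6 E18.5 and 1 of 4 adult libraries, and that adult library held a single such cell. The ribosomal protein sum was higher in 4 of 4 yolk sac libraries, 0 of 4 E12.5 brain, 1 of 6 E18.5 and 1 of 4 adult libraries. Cells with 2 or more cycle UMIs also had more UMIs in all, with library medians of 1484 to 2967 against 854 to 1931 in E12.5 brain, so that the classes differ in depth as well. Among cells with no cycle UMI, the adult sum was 62.7% of the E12.5 brain sum for initiation and 28.5% for elongation. Over all cells these were 58.4% and 27.7%. Library medians of the cells with no cycle UMI were 456.5 to 524.5 UMIs in the adult and 853.5 to 1931 in E12.5 brain. A lack of cycle UMIs thus says less about cycling in the adult cells, and the part of cycling in the lower sums was not tested.

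Other genes of the translation pathway were counted from lists chosen like the members. The list of cytosolic tRNA synthetases, which charge tRNA with amino acids, also held Aimp1 and Aimp2, auxiliary proteins of the synthetase complex. Of its 18 tested rows, 2 fell and none rose at E18.5, where 13.4% of all tested genes fell. In adult against E12.5 brain 6 fell and none rose, where 20.7% of all tested genes fell. The largest of the 6 were Aimp1 (log2 -2.26, adjusted p = 0.0491), Lars (log2 -1.72, adjusted p = 0.0252) and Wars (log2 -0.90, adjusted p = 0.0435). Of the alternatives, 13 of 21 ended the call on Aimp1, 8 of 20 that on Lars and 15 of 22 that on Wars. The poly(A)-binding proteins help close the message into a loop, and the rows of Pabpc1 (log2 -1.61, adjusted p = 0.00823) and Pabpc4 (log2 -1.57, adjusted p = 0.00373) both fell in the adult, out of 3 tested, where 20.7% of all tested genes fell. Pabpc4 did not pass with the batch as a covariate (adjusted p = 0.167), nor Pabpc1 on sums per plate (0.103). Of 7 tested TOP messages outside the ribosome, 3 fell and 1 rose in that comparison, where 20.7% of all tested genes fell and 17.8% rose, led by Gnb2l1, the ribosomal scaffold RACK1 (log2 -2.14, adjusted p = 1.17e-14). Naca (log2 -1.98, adjusted p = 7.21e-07) and Nap1l1 (log2 -1.94, adjusted p = 1.16e-05) were the others that fell, and the row that rose joins several ubiquitin genes.

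The integrated stress response is set off by eIF2 phosphorylation. Of its 6 tested genes 3 rose and none fell in adult against E12.5 brain, where 17.8% of all tested genes rose: Ppp1r15a, which recruits the eIF2 phosphatase (log2 2.89, adjusted p = 0.00106), Cebpg (log2 1.85, adjusted p = 3.39e-05) and Atf4, the central transcription factor (log2 1.2, adjusted p = 2.16e-05). With the batch as a covariate Atf4 was 0.18 (adjusted p = 0.766). Summed immediate early genes were also highest in the adult libraries, as given above, and their part in these values was not tested. Of 10 tested rows of the mTORC1 list 2 passed higher and none lower, a share near those 17.8%. They were Ddit4, an mTORC1 inhibitor (log2 3.68, adjusted p = 1.47e-06), and Pdcd4, an inhibitor of the eIF4A helicase (log2 1.81, adjusted p = 0.0109), and with the batch as a covariate Ddit4 was 2.32 (adjusted p = 0.412) and Pdcd4 turned to -0.36 (0.86). Release and recycling factors gave none of 2 tested, and of 3 tested mitochondrial factors Tufm fell (log2 -1.64, adjusted p = 0.00107), with an adjusted p of 0.0739 with the batch as a covariate.

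The remaining members add little signal. Of the 65 rows, 17 were not tested; Eif4e1b, an oocyte cap-binding protein, had no UMI, and the others had from 4 to 142 UMIs. Eif3e and Eif3m, both eIF3 subunits, held 21 and 47 UMIs while other subunits held up to 2357. The 2 tested Argonaute rows passed in no comparison, and the 3 summed to 77.5 ± 34.0, 92.2 ± 43.4, 81.5 ± 16.3 and 99.3 ± 35.2 CPM. Rows that join names, among them those of Eif4h, Eif3a, Eif2d and Eif4ebp3, cannot be given to 1 gene, and members with close copies in the genome, such as Eif5a, Eif1ax, Eif3j and Eif2s3x, may hold reads of those copies.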

How the data were processed

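Single cells were sorted into plates and sequenced by MARS-seq, which tags the 3′ end of each captured polyadenylated RNA with a molecular identifier. UMI counts, 1 value for each gene row and well (192 wells per library), are what the authors deposited. Base calls came from bcl2fastq 2.15.0.4 and the genome build was mm9, per the submitters' processing notes. No source used here names the aligner, the annotation or how reads with several matches were treated.

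Wells with at least 300 UMIs were kept (3012 of 3420 single-cell wells), and counts were summed per library. No doublet caller was run. Members and lists were chosen with earlier results of these data known. All 18 libraries entered 1 edgeR 4.0.16 quasi-likelihood fit (R 4.3.3, TMM, filterByExpr) without covariates, with Benjamini-Hochberg adjustment over 4883 rows and a threshold of 0.05. CPM are counts scaled to a common library total. The fit was tested on simulated counts. Alternatives used limma 3.58.1 (voom), DESeq2 1.42.0, other filters, thinning, plates, the sequencing batch and leaving out each library; 3 of them were added after seeing the data (without cells over 5 blood lineage UMIs, within sequencing batch 29, without the Eef1a1 row).

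Named were all elongation rows with a UMI, the 5 largest rises and falls among called initiation rows of each comparison, the 10 initiation rows with the highest mean, sets of paralogues, and up to 3 called genes of each other list. Other members are named where a count or a role is described, chosen with their values known. Promoter sequences are from RefSeq (GRCm38.p6), a build other than that of the counts, and were matched by symbol only.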

Additional observations from a re-analysis of the deposited data

Results flagged for a closer look

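In 8 of the 161 groups of 4 to 6 libraries examined, 1 library stood apart from the rest of its group by Dixon's 95% criterion, and chance alone gives about 1 in 20. Eef1e1 was at 88.3 CPM in E18.5 brain replicate 3, against 40.1 to 55.6 in the others. Eef1g was at 957 CPM in E12.5 brain replicate 2, against 775 to 801, and Eif3c at 543 CPM in the same library, against 449.9 to 459. Eef2k was at 59.7 CPM in E18.5 brain replicate 5, against 21.2 to 34.8. Eif2ak2 was at 82.9 CPM in E12.5 brain replicate 1, against 50.5 to 55.7. Eif4e2 was at 93.9 CPM in adult brain replicate 4, against 44.0 to 52.0. Eif4ebp2 was at 39.4 CPM in E12.5 brain replicate 4, against 82.4 to 87.0. The summed elongation rows were at 5801 CPM in yolk sac replicate 3, against 5011 to 5118.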

How the results depend on the processing

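Over all alternatives, 1900 values of single genes were recomputed: 1596 kept direction and side of the threshold, 277 kept direction but no longer passed, 10 newly passed and 17 changed sign. Of called values, 2 changed sign: Eef1g at E18.5 against E12.5 brain, 0.039 (log2) without cells with cycle UMIs, and Pdcd4 in adult against E12.5 brain, -0.36 with the batch covariate. The other changes of sign were in values that had not passed. Eef1b2 at E18.5 was 0.085 with thinned cells, 0.13 with the batch covariate and 0.045 without cells with cycle UMIs. Eif4ebp1 in adult against E18.5 was 0.034 with thinned libraries and 0.0605 with thinned cells. In adult against E12.5 brain Eif4g1 was 0.126 with thinned libraries, 0.276 with thinned cells, 0.272 without cells with cycle UMIs and -0.252 to 0.0323 over fits without 1 library (above 0 without adult replicate 3). Eif4g2 was -0.077 with no filter and -0.745 with the batch covariate. Eif4g3 was 0.42 with thinned libraries, 0.046 with thinned cells and -0.358 to 0.0495 without 1 library (above 0 without adult replicate 2), and Eif2ak4 -0.185 to 0.776 (below 0 without adult replicate 1). For yolk sac against E12.5 brain, 774 genes passed, and 393 with libraries thinned to the lowest total, 276 with cells thinned to 300 UMIs, 493 with counts summed per plate and 407 without cells with cycle UMIs. Its 3 initiation rows became 1 with no filter on low counts, 5 with the sequencing batch as a covariate, 0 per plate and 8 (of 35 tested) within sequencing batch 29. Its 0 elongation rows became 1 without cells with cycle UMIs and 1 within sequencing batch 29. For E18.5 against E12.5 brain, the 1195 genes became 627 and 445 with thinned libraries and cells, 332 with the batch covariate, 660 per plate, 739 without cells with blood lineage UMIs and 496 without cells with cycle UMIs. The 13 initiation rows became 5, 3, 3, 5, 8 and 3 in these settings. The 3 elongation rows became 1 in each of them, and also 1 with RLE size factors, with only the 2 groups compared, with at least 500 UMIs per cell, with rows of a single symbol and without cells over 5 blood lineage UMIs. For adult against E18.5 brain, the 1050 genes became 683 and 440 with thinned libraries and cells, 698 per plate and 491 without cells with cycle UMIs. The 8 initiation rows became 5, 5, 5 and 3 there, and 4 with limma-voom. For adult against E12.5 brain, the 1883 genes became 1039 and 751 with thinned libraries and cells, 910 with the batch covariate and 859 without cells with cycle UMIs. The 15 initiation rows became 8 with thinned cells, 7 with the batch covariate and 8 without cells with cycle UMIs. Thinning and leaving out cells reduce the counts tested; for the other settings the cause was not tested.

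Leaving out 1 library at a time gave 625 to 727, 930 to 1118, 876 to 1033 and 1710 to 1797 genes in the order above. Initiation rows numbered 1 to 3, 7 to 12, 6 to 9 and 14 to 18, and elongation rows 1 to 2 at E18.5 against E12.5 brain, 4 to 6 in adult against E18.5 and 5 to 6 in adult against E12.5 brain. The filter on cells with any blood lineage UMI left too few cells for the yolk sac and adult comparisons and was not run there. No paired analysis was possible because replicate numbers follow the order of deposit and mark no shared animal, batch or day across groups. Depth limits rows under about 150 UMIs, which were mostly not tested.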
